A study of Mus musculus with 6 samples.

Results

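The genes described here are the 5 that encode the body's dedicated metalloproteinase inhibitors, the tissue inhibitors of metalloproteinases Timp1, Timp2, Timp3 and Timp4 and the membrane-anchored inhibitor Reck. They were taken by gene name, and all 5 were found among the 55298 genes of the files. They were measured by RNA-seq in cancer-associated fibroblasts (CAFs) from orthotopic lung tumours of wild-type C57BL/6 mice over 8 weeks old. One group is 3 libraries of MHC class II-positive CAFs (apCAFs 1, 2 and 3), the other 3 libraries of MHC class II-negative CAFs (nonapCAFs 4, 5 and 6). Both groups share the rest of the gate, which kept large cells that lacked CD45, CD31, EPCAM and mCherry and carried PDGFRa and a marker the labels spell PDPL. Per the labels, tumours were pooled and both populations were sorted together in 3 independent experiments, so a library is not 1 animal, and which libraries share an experiment is not given. The comparison asks how the inhibitor transcripts differ between CAFs with and without surface class II.

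Metalloproteinases cut collagens and other matrix proteins, and also shed growth factors, cytokines and receptors from the cell surface. TIMPs are small secreted proteins whose amino-terminal domain sits in the active site of the enzyme. TIMP2 also forms a complex with MMP14 at the cell surface through which pro-MMP2 is activated, TIMP3 binds to the extracellular matrix and blocks ADAM17 and several ADAMTS enzymes, and RECK is held at the membrane by a lipid anchor. Fibroblasts are a main source of both matrix proteases and their inhibitors.

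Timp1, Timp3 and Reck were higher in apCAFs, 3.42-fold, 6.16-fold and 2.49-fold, and passed the test across all genes. Timp2 had 1.32 times the level in apCAFs and Timp4 was near the bottom of the measured range in both groups, and neither passed. So 3 of 5 members rose and 0 fell, against 3.91% of the 36443 tested genes that rose and 0.486% that fell (limma, Benjamini-Hochberg adjusted p under 0.05). In the set of 17829 genes averaging 100 or more over the libraries, to which Timp4 does not belong, 5.87% rose. Throughout, levels are normalized counts from the authors, means carry the SD over 3 libraries (n = 3), and a fold change compares log2(value + 1).

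The promoters of the 3 genes that rose and of Timp2, which did not pass, are shown so that the windows next to a changed and a not called member can be compared. Each runs from 250 bases before to 50 bases after the RefSeq start on GRCm38.p6, in the direction of transcription, and capitals mark every match of the motifs searched. They lie at chrX:20869916-20870215 (plus strand, Timp1), chr10:86300162-86300461 (plus strand, Timp3), chr4:43875280-43875579 (plus strand, Reck) and chr11:118355362-118355661 (minus strand, Timp2).
Timp1: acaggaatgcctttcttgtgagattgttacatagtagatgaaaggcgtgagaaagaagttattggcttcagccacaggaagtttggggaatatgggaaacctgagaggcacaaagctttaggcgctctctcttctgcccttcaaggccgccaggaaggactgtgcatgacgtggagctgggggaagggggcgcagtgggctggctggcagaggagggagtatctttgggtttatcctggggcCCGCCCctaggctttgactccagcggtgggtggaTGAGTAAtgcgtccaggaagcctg
Timp3: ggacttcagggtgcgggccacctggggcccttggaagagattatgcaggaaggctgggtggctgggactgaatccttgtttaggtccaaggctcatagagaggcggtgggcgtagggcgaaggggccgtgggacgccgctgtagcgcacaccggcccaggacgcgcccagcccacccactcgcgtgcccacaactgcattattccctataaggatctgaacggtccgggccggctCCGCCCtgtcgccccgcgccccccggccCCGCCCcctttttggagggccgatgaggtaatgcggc
Reck: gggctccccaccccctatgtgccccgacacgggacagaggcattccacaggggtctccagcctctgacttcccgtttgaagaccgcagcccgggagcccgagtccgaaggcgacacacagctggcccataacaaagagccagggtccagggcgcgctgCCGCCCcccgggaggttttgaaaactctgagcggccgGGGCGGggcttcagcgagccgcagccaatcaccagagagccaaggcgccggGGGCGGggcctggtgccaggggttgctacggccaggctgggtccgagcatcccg
Timp2: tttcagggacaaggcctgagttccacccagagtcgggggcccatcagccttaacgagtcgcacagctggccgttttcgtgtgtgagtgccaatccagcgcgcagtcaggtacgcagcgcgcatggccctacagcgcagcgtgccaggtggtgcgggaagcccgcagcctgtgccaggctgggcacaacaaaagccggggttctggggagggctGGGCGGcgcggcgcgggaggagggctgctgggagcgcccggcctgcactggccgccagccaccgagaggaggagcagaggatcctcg
Both strands were searched for 5 motifs. The SP1 motif was searched as GGGCGG and the TATA box as TATAAA. For AP-1 the letters were TGANTCA, with TGAGTAA added as an AP-1-like variant, and the STAT motif was searched as TTCNNNGAA. Timp1 held TGAGTAA beginning 26 bases after its start, letters found in 2.68% of all 32851 RefSeq promoters of this length. GGGCGG, found in 35.7% of all promoters, occurred in all 4 windows shown: 1 time in Timp1 and Timp2, 2 times in Timp3 and 3 times in Reck. TGANTCA (7.81% of all promoters), TTCNNNGAA (8.3%) and TATAAA (13.6%) were not in these windows, and the Timp4 window held none of the 5 motifs. GC content was 67.0% for Timp3, 68.7% for Timp2 and 69.3% for Reck, against 55.0% for Timp1, 53.3% for Timp4 and a median of 52.7%. The matches are descriptions of letters only, and the genes that rose and Timp2 shared the SP1 letters.

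Timp3 encodes the inhibitor that stays bound to the matrix and has the widest reach over ADAM and ADAMTS enzymes. It had 63137, 64011 and 91224 normalized counts in apCAFs 1, 2 and 3, and 12648, 12272 and 10153 in nonapCAFs 4, 5 and 6. The groups were far apart, with the lowest apCAFs library 4.99 times the highest nonapCAFs library. The means were 72791 ± 15970 and 11691 ± 1345, a log2 difference of 2.62 (SE 0.21, limma adjusted p = 0.0114; 95% interval of the fold 4.26 to 8.90). Timp3 lies at chromosome 10, 86300372 to 86349506, plus strand, wholly inside Syn3 on the opposite strand.

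Syn3 encodes a synapsin, a protein of synaptic vesicles, and the pair share 1733 exon bases (86347774 to 86349506), which are 21.3% of Timp3's exon bases and 14.1% of Syn3's. Syn3 had 24152, 26478 and 38079 normalized counts in apCAFs 1, 2 and 3 and 4916, 4681 and 4628 in nonapCAFs 4, 5 and 6. Its log2 difference of 2.61 (SE 0.21, limma adjusted p = 0.0115) was close to that of Timp3, and its value was 38.1% to 45.6% of Timp3's in every library. The strand setting of the counting is not given in the sources used here, so reads over the shared exon bases cannot be told apart. Both the Syn3 and the Timp3 values are uncertain for that reason.

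**Figure D1:**
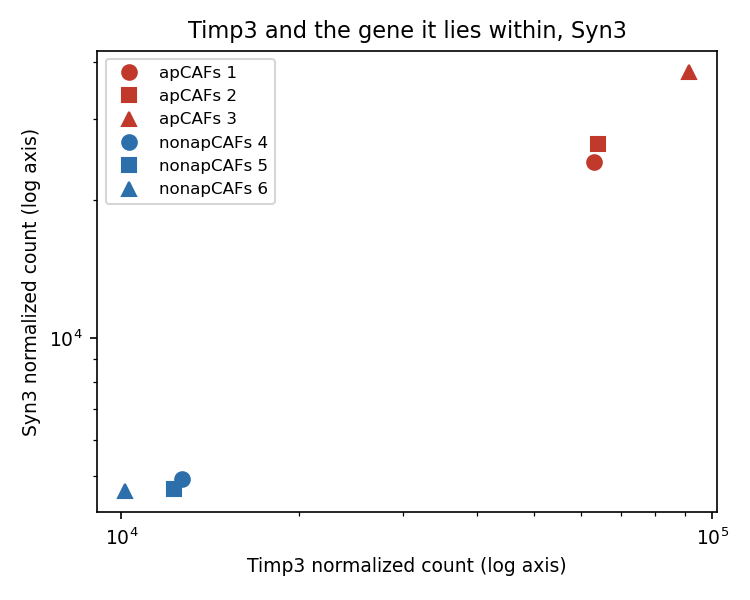
Normalized counts of Timp3 (horizontal log axis) and Syn3 (vertical log axis) in each library, apCAFs in red and nonapCAFs in blue. Both groups lie apart on both axes, and Syn3 stays at 38.1% to 45.6% of Timp3.

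Timp1 encodes a soluble inhibitor that is induced by cytokines in many cell types and also binds CD63 at the cell surface. It had 32634, 33764 and 46565 normalized counts in apCAFs 1, 2 and 3 and 11545, 11269 and 9870 in nonapCAFs 4, 5 and 6. No library of either group reached the other, and the lowest apCAFs library was 2.83 times the highest nonapCAFs library. The means of 37654 ± 7738 and 10895 ± 898 differed by 1.77 on the log2 scale (SE 0.19, limma adjusted p = 0.0180; 95% interval of the fold 2.43 to 4.81). The gene lies at chromosome X, 20870166 to 20874735, plus strand, inside Syn1 on the other strand, with 0 shared exon bases. Syn1 had 971, 785 and 522 normalized counts in apCAFs and 1621, 1724 and 1542 in nonapCAFs, the opposite order to Timp1 (log2 difference -1.14, limma adjusted p = 0.0842). Its DESeq2 adjusted p in the authors' deposited table was 8.74e-05.

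Reck encodes the glycoprotein that restrains MMP14, MMP2 and MMP9 at the membrane and also serves as a co-receptor for WNT7. It had 1719, 1789 and 2475 normalized counts in apCAFs 1, 2 and 3 and 841, 795 and 740 in nonapCAFs 4, 5 and 6. All 3 apCAFs libraries were at least 2.04 times the highest nonapCAFs library. The means were 1994 ± 418 and 792.0 ± 50.6, a log2 difference of 1.31 (SE 0.19, limma adjusted p = 0.0303; 95% interval of the fold 1.77 to 3.48). Reck spans chromosome 4, 43875530 to 43944806, plus strand.

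Timp2, the constitutive family member in many tissues, had 58088, 55684 and 75124 normalized counts in apCAFs 1, 2 and 3 and 47946, 47835 and 46219 in nonapCAFs 4, 5 and 6. The groups did not overlap, but the lowest apCAFs library was only 1.16 times the highest nonapCAFs library. The means of 62965 ± 10600 and 47333 ± 967 differed by 0.40 on the log2 scale (SE 0.17), which did not pass (limma adjusted p = 0.282; 95% interval of the fold 0.983 to 1.77). The authors' deposited table gives Timp2 a log2 fold change of 0.41 with a DESeq2 adjusted p of 0.0213, and 20.6% of the 19255 genes with an adjusted p there are called higher. Timp2 lies at chromosome 11, 118301069 to 118355740, minus strand.

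Timp4, known mainly from heart and other muscle-rich tissue, had 30, 15 and 45 normalized counts in apCAFs 1, 2 and 3 and 8, 10 and 26 in nonapCAFs 4, 5 and 6. The groups overlapped, since nonapCAFs 6 was above apCAFs 2. The log2 difference was 1.03 (SE 0.58, limma adjusted p = 0.377), and its 95% interval of the fold, 0.736 to 5.67, spans a fall and a rise. The gene lies at chromosome 6, 115241892 to 115252205, minus strand, inside Syn2 on the opposite strand, with 90 shared exon bases. Syn2 had 421, 513 and 569 normalized counts in apCAFs and 71, 59 and 144 in nonapCAFs (log2 difference 2.54, limma adjusted p = 0.0303), far above Timp4 in every library, and with the strand setting not given their reads over the shared bases cannot be told apart.

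**Figure D2:**
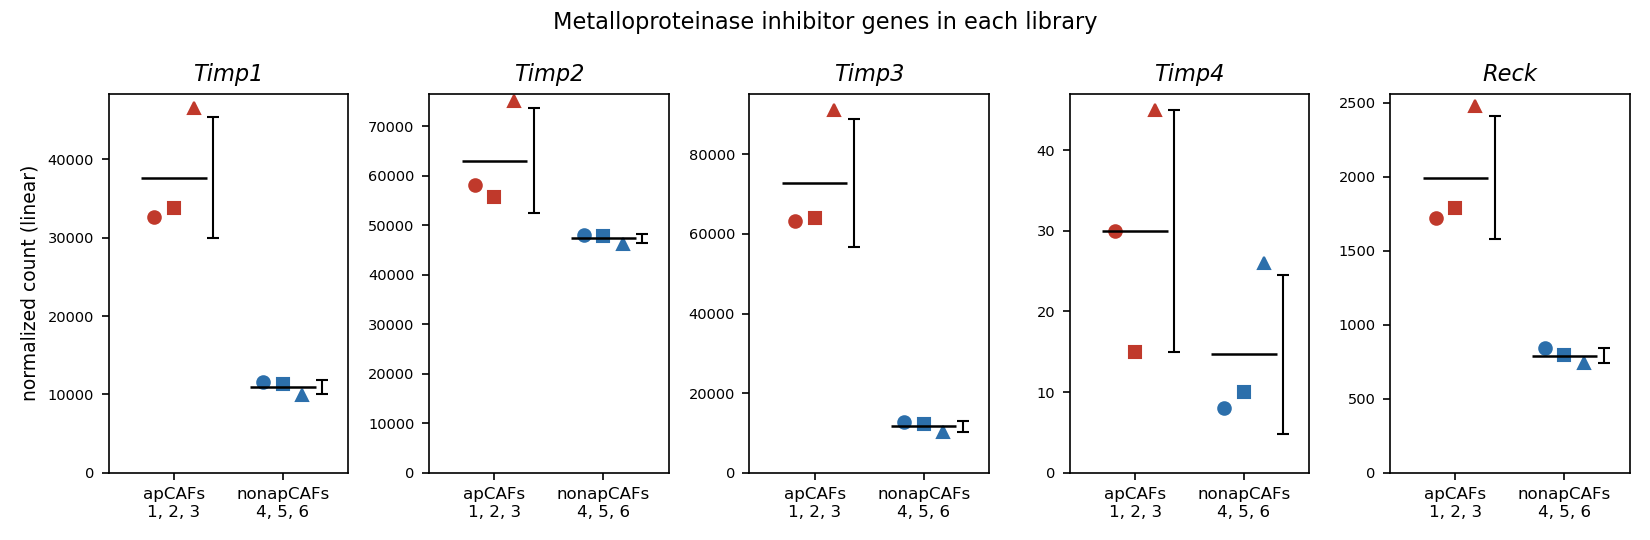
Normalized counts (linear axes from 0, 1 panel per gene) in apCAFs 1, 2 and 3 (red) and nonapCAFs 4, 5 and 6 (blue), with circles, squares and triangles in the order the libraries are named; lines are group means and bars the SD. The groups are apart for Timp1, Timp2, Timp3 and Reck and overlap for Timp4, and apCAFs 3 is the highest library in every panel.

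Timp1, Timp2, Timp3 and Reck shared an order of the extreme libraries. apCAFs 3 was the highest of the 6 libraries and nonapCAFs 6 the lowest for each of these 4 genes, and apCAFs 3 was the highest for 35.5% of all genes averaging 100 or more. The share of all genes lowest in nonapCAFs 6 was not taken. Over all genes, apCAFs 3 also had the highest sum of normalized counts (93330791) and nonapCAFs 6 the lowest (77960347). For Timp4 apCAFs 3 was also the highest, but nonapCAFs 4 was the lowest and nonapCAFs 6 the highest of the nonapCAFs. Within apCAFs the highest library exceeded the lowest by 1.43 times for Timp1, 1.35 for Timp2, 1.44 for Timp3 and 1.44 for Reck. Within nonapCAFs that ratio was 1.04 to 1.25 for these genes. All 3 apCAFs libraries lay above all 3 nonapCAFs libraries for 4 of 5 members, against 17.1% of all tested genes and 25.5% of those averaging 100 or more.

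Dividing by exon length allows a rough comparison between genes. The length is that of all annotated exons of a gene together, which can exceed the transcript that is made. For Timp3 it includes the 1733 bases shared with Syn3. In apCAFs the order of levels per exon kilobase was Timp1 (42404 ± 8713 normalized counts per kb), Timp2 (16162 ± 2720), Timp3 (8938 ± 1961), Reck (417 ± 87.4) and Timp4 (5.09 ± 2.55), and no neighbours in that order overlapped. In nonapCAFs Timp1 (12269 ± 1011 per kb) and Timp2 (12149 ± 248) overlapped, followed by Timp3 (1436 ± 165), Reck (166 ± 10.6) and Timp4 (2.49 ± 1.67). On this scale Timp1 and Timp2 were level in nonapCAFs, while Timp1 led in every apCAFs library. Timp1 lay above 99.43% to 99.61% of the genes detected in an apCAFs library and above 98.25% to 98.36% in nonapCAFs. For Timp3 these shares were 97.08% to 97.92% and 83.11% to 85.36%, and for Reck 61.74% to 66.03% and 51.43% to 52.38%.

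The 4 TIMP levels per kb summed to 59417, 60178 and 82929 in apCAFs 1, 2 and 3 and to 26862, 26477 and 24229 in nonapCAFs 4, 5 and 6. The make-up of that sum differed between the groups. Timp1 made up 61.9%, 63.2% and 63.2% of it in apCAFs and 48.4%, 47.9% and 45.9% in nonapCAFs. Timp2 made up 25.1%, 23.8% and 23.3% against 45.8%, 46.4% and 49.0%, so its share was lower in every apCAFs library although its level was not lower. Timp3 made up 13.0%, 13.1% and 13.5% against 5.78%, 5.69% and 5.15%. Timp4 was at most 0.018% in any library.

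**Figure D3:**
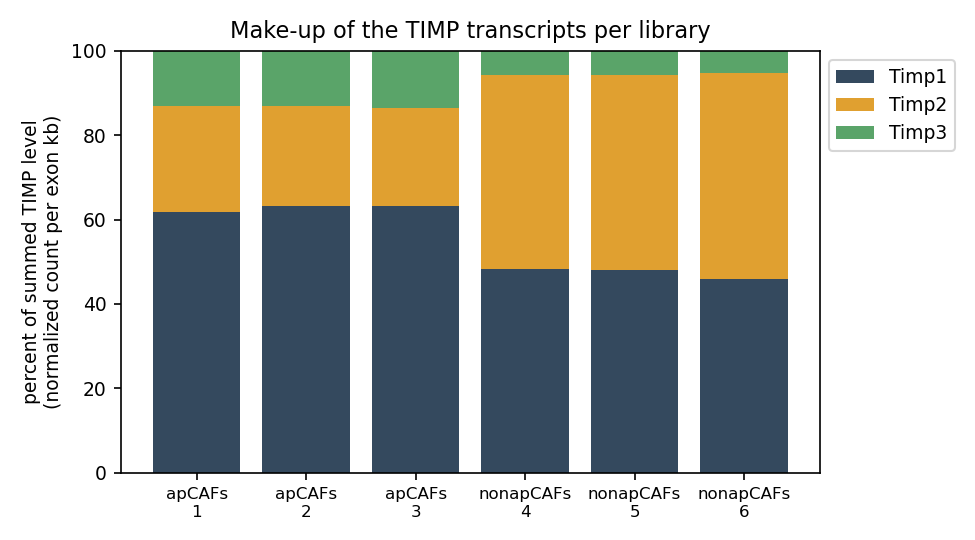
Share of the summed TIMP level per exon kilobase (percent, linear axis from 0) taken by Timp1, Timp2 and Timp3 in each library; Timp4, at most 0.018%, is too small to be drawn. Timp2 takes 23.3% to 25.1% in apCAFs and 45.8% to 49.0% in nonapCAFs.

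Ratios of 1 member to another within a library do not depend on how libraries were scaled against each other. These 6 ratios were chosen after the members' values were seen. Each was written with the member of the larger fold change first, so all differences are positive by construction. They restate the members' fold changes and are no separate support for them. The log2 ratio of Timp3 to Timp2 was 0.12, 0.20 and 0.28 in apCAFs and -1.92, -1.96 and -2.19 in nonapCAFs. This is a difference of 2.22 between the group means. In apCAFs the log2 ratio of Timp1 to Timp2 was higher by 1.38, of Timp3 to Timp1 by 0.85, of Timp3 to Reck by 1.31, of Reck to Timp2 by 0.92 and of Timp1 to Reck by 0.46. The groups did not overlap in any of the 6 ratios, each with an exact permutation p of 0.1 (two-sided, adjusted p 0.1 over the 6), which is the smallest p that 3 libraries against 3 allow. How often pairs of other genes lie apart in this way was not tested. In descending order of difference the members ran Timp3, Timp1, Reck and Timp2, which is the order of their fold changes.

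The proteases the inhibitors act on were described from lists chosen for this pathway. Of the 15 secreted matrix metalloproteinases (MMPs) with any signal, 0 passed limma in the main fit. At an unadjusted limma p under 0.05 there were 6, against 7021 of all 36443 tested genes. The authors' deposited table called 6 (5 higher, 1 lower), where 20.6% of all genes with an adjusted p were called higher. Their median log2 difference was -0.12, beside -0.04 for all genes tested. Mmp2, the gelatinase whose activation uses TIMP2, had 36530, 36496 and 65765 normalized counts in apCAFs and 11230, 11468 and 18991 in nonapCAFs (log2 difference 1.72, limma adjusted p = 0.0650). The authors' deposited table gives Mmp2 a DESeq2 adjusted p of 3.18e-07. Mmp2 passed limma in 4 of 22 alternatives (lowest limma adjusted p = 0.00799, with a variance trend) and missed in the other 18. Mmp3, stromelysin 1, had 12573, 12232 and 6491 against 13893, 12128 and 10762, and Mmp19 had 11418, 11717 and 15216 against 8379, 8628 and 6141 (limma adjusted p = 0.579 and 0.151). The groups did not overlap for Mmp2 and Mmp19 and did for Mmp3. For Mmp19 and Mmp3 the authors' deposited DESeq2 adjusted p was 0.00128 and 0.524.

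Of the 6 membrane-type MMPs, 1 rose and 0 fell in limma (median log2 difference 0.81), and the authors' deposited table called 3 higher and 0 lower. The one that rose in limma was Mmp17, which encodes a lipid-anchored enzyme, with 587, 510 and 945 normalized counts in apCAFs and 150, 125 and 112 in nonapCAFs (5.09-fold, limma adjusted p = 0.0203). Mmp14, the membrane enzyme held in check by TIMP2, TIMP3 and RECK, had 62975, 64106 and 89320 against 53436, 52066 and 49174, a log2 difference of 0.47 that did not pass (limma adjusted p = 0.267). The authors' deposited table gives Mmp14 a DESeq2 adjusted p of 0.0185. Mmp24 had 898, 964 and 1051 against 806, 665 and 812.

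ADAM and ADAMTS enzymes are targets of TIMP3 in particular. Of 9 ADAM genes 1 rose and 0 fell in limma (median 0.53), and of 19 ADAMTS genes 6 rose and 0 fell (median 1.39). Among all tested genes 3.91% rose and 0.486% fell in limma. The authors' deposited table called 5 ADAM genes higher and 1 lower, and 11 ADAMTS genes higher and 2 lower. There, 20.6% of all genes with an adjusted p were called higher. All apCAFs libraries lay above all nonapCAFs libraries for 5 ADAM and 13 ADAMTS genes, against 17.1% of all tested genes. They lay below for 1 ADAM and 2 ADAMTS genes, against 15.4% of all tested genes. Adam12 had 5343, 4880 and 7417 normalized counts in apCAFs and 1215, 1719 and 1425 in nonapCAFs (4.02-fold, limma adjusted p = 0.0194). Adam17, the sheddase of TNF, had 11807, 12106 and 9128 against 13730, 13425 and 11391, and its groups overlapped, as did those of Adam10. Adam9 had 18381, 18165 and 18495 against 15362, 15666 and 14737 (limma adjusted p = 0.299). The groups did not overlap for Adam9, but the difference did not pass limma. Its DESeq2 adjusted p in the authors' deposited table was 0.000868, beside 0.284 for Adam17 and 0.448 for Adam10.

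The ADAMTS genes that rose were Adamts2, Adamts3, Adamts9, Adamts12, Adamts16 and Adamts20. Adamts2, a procollagen N-proteinase, had 25784, 25074 and 36772 normalized counts in apCAFs and 10256, 10799 and 9539 in nonapCAFs (2.82-fold, limma adjusted p = 0.0249). Adamts3, of the same enzyme group, rose 3.95-fold (limma adjusted p = 0.0378). Adamts9, which cuts proteoglycans such as versican, had 8562, 8648 and 17927 against 1499, 1666 and 1974 (6.45-fold, limma adjusted p = 0.0230). Adamts12, Adamts16 and Adamts20 rose 2.93-fold, 3.61-fold and 14.8-fold (limma adjusted p = 0.0402, 0.0327 and 0.0322). Adamts1 had 31225, 32235 and 40959 against 18735, 19890 and 20827 and did not pass (limma adjusted p = 0.0671). Adamts10 had 12188, 12172 and 20288 against 9540, 10554 and 11995 (limma adjusted p = 0.392). For Adamts1 and Adamts10 the authors' deposited DESeq2 adjusted p was 2.71e-07 and 0.11.

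**Figure D4:**
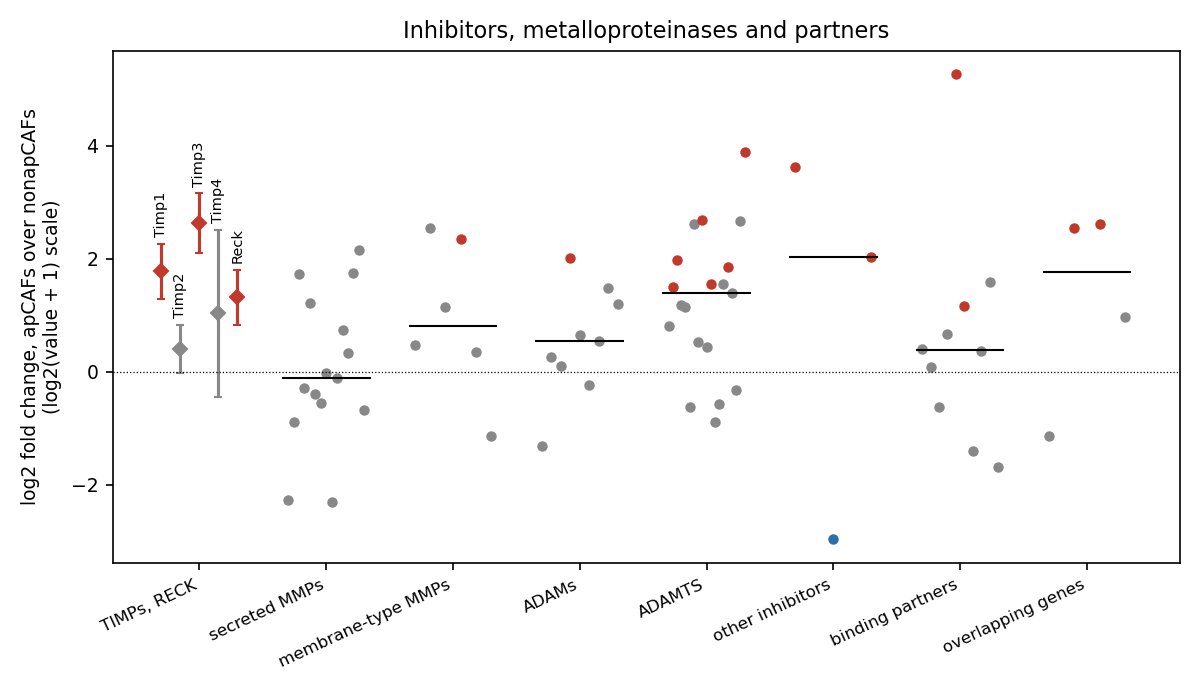
Log2 fold change, apCAFs over nonapCAFs (log2(value + 1) scale), of the 5 inhibitors (diamonds, bars are 95% intervals) and of the genes of 7 lists (1 point per gene, black lines are list medians); red points rose, blue points fell and grey points did not pass limma at an adjusted p of 0.05. In the main fit shown, no secreted MMP passed, while 6 of 19 ADAMTS genes and Timp1, Timp3 and Reck rose. Mmp2 passed limma in 4 of 22 alternatives, so this contrast depends on the setting.

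Ratios of inhibitor to protease transcript were taken within each library, for Timp1, Timp2, Timp3 and Reck over Mmp14, Mmp2 and Mmp3. The log2 ratio of Timp3 to Mmp14 was 0.00, -0.00 and 0.03 in apCAFs and -2.08, -2.09 and -2.28 in nonapCAFs, a difference of 2.16. For Timp1 to Mmp14 the log2 ratio was -0.95, -0.93 and -0.94 against -2.21, -2.21 and -2.32, a difference of 1.31. That of Reck to Mmp14 differed by 0.85. All of these ratios were higher in every apCAFs library and varied little within apCAFs. For Timp2 to Mmp14 it was -0.12, -0.20 and -0.25 against -0.16, -0.12 and -0.09, so the groups overlapped, with a difference of -0.07 (exact permutation p = 0.3, two-sided).

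Against Mmp2 the order was different. The log2 ratio of Timp2 to Mmp2 was 0.67, 0.61 and 0.19 in apCAFs and 2.09, 2.06 and 1.28 in nonapCAFs, lower in every apCAFs library by 1.32 on average. Timp3 to Mmp2 was higher in apCAFs by 0.90, while Timp1 to Mmp2 overlapped (difference 0.05, exact permutation p = 1.0), as did Reck to Mmp2 (difference -0.41, exact permutation p = 0.3). Against Mmp3, all 4 ratios were higher in every apCAFs library, by 2.06 for Timp1, 0.69 for Timp2, 2.91 for Timp3 and 1.601 for Reck. Among ratios whose groups did not overlap, single libraries moved 2 differences by over 1.5 times: Timp2 to Mmp3 was 0.24 without apCAFs 3, and Timp3 to Mmp2 was 0.56 without nonapCAFs 6. In all, 12 ratios were tested and the groups were apart in 9, each at the smallest p of 0.1 (two-sided exact permutation test, Benjamini-Hochberg adjusted p = 0.133 over the 12). No ratio could have passed 0.05 in this design. These ratios contain the members' own differences and are no separate support for them. How often such ratios of other genes lie apart was not tested.

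**Figure D5:**
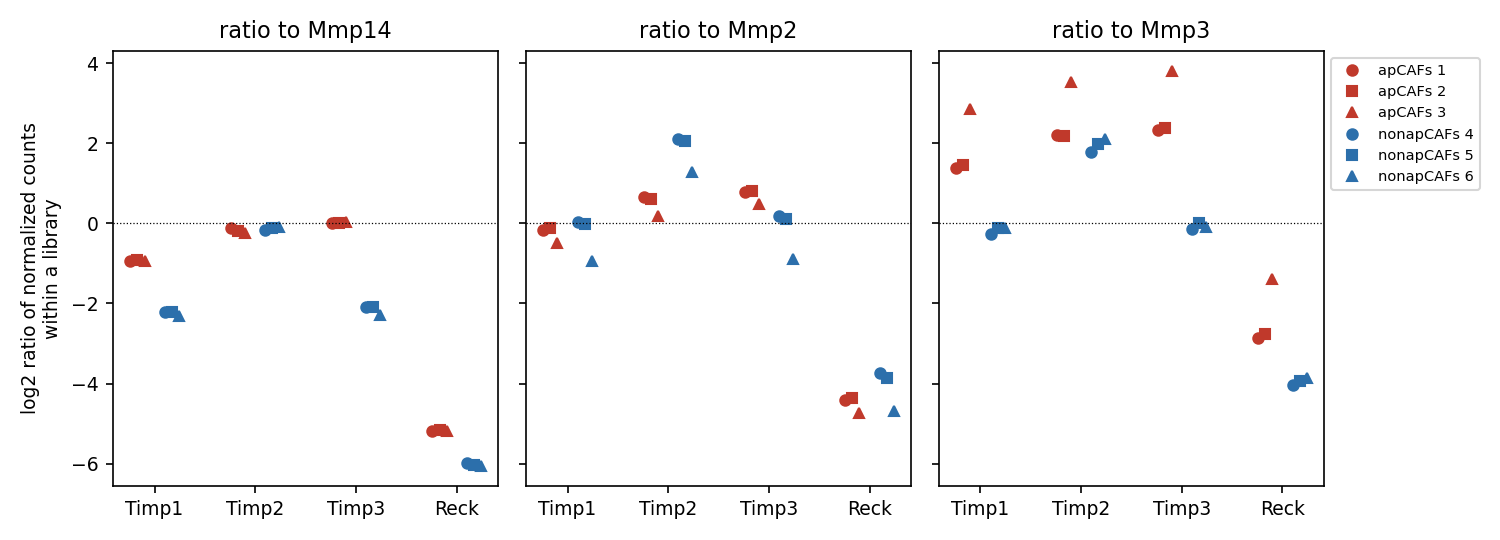
Log2 ratio of the normalized counts of each inhibitor to Mmp14, Mmp2 and Mmp3 (panels) in each library, apCAFs in red and nonapCAFs in blue. Timp3 to Mmp14 lies near 0 in all apCAFs and between -2.28 and -2.08 in nonapCAFs, and Timp2 to Mmp2 is lower in apCAFs.

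Other inhibitors of metalloproteinases also differed. Of the 3 with any signal, 2 rose and 1 fell in limma, and Mug1 and Mug2 were listed at 0 in all libraries. Among all tested genes 3.91% rose and 0.486% fell in limma. A2m, the alpha-2-macroglobulin that traps proteases of all classes, had 4474, 4675 and 7582 normalized counts in apCAFs and 426, 501 and 400 in nonapCAFs (12.3-fold, limma adjusted p = 0.00981). Tfpi2, a Kunitz-type inhibitor deposited in the matrix, had 831, 818 and 1505 against 257, 240 and 239 (4.10-fold, limma adjusted p = 0.0261). Pzp, of the macroglobulin family, was listed at 2, 0 and 0 in apCAFs and 9, 10 and 12 in nonapCAFs (limma adjusted p = 0.0378), values so low that rounding to whole numbers sets much of their spread.

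Of 10 genes whose proteins bind TIMPs or RECK, 2 rose and 0 fell (median log2 difference 0.39). Efemp1, a fibulin that binds TIMP3, had 4224, 4480 and 4967 normalized counts in apCAFs and 2098, 1894 and 2081 in nonapCAFs (2.25-fold, limma adjusted p = 0.0201). Kdr, the VEGF receptor that TIMP3 binds, had 1843, 1914 and 3066 against 65, 77 and 36 (38.5-fold, limma adjusted p = 0.00966). Lrp1, the endocytic receptor that clears TIMPs, had 110422, 123824 and 171760 against 78690, 98116 and 74991 (limma adjusted p = 0.202). The groups did not overlap for Lrp1, yet the difference did not pass limma. Adgra2, the RECK partner in WNT7 signalling, had 34557, 31196 and 40861 against 29694, 29682 and 23525, and Itgb1 had 72080, 72199 and 62254 against 68972, 67463 and 59014 (limma adjusted p = 0.331 and 0.760). The direction of Itgb1 turns with the scaling. In the authors' deposited table the DESeq2 adjusted p was 0.00533 for Lrp1, 0.0724 for Adgra2 and 0.632 for Itgb1.

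The genes whose profile over the 6 libraries was most like each member's were sought among 13321 genes averaging 100 or more (13322 for Timp4), by the root mean square (RMS) difference of log2 values centred on each gene's mean. For Timp3 they were Ndufa4l2 (RMS difference 0.051), Cybrd1 (0.0861) and Plac8 (0.087). For Timp1 they were Gbp6 (0.0639), Msrb3 (0.0684) and Dusp1 (0.0708), and for Reck Ifi204 (0.0435), Zswim6 (0.0473) and Nxt2 (0.0526). These profiles carry the same group difference as the member, such as a log2 difference of 2.65 for Ndufa4l2 and 1.68 for Gbp6. For Timp2 the nearest were Copg1 (0.0156), Stim2 (0.0312) and Dnajc1 (0.0317). For Timp4 the nearest, Peli3 (0.209), Fam83h (0.222) and Fgf23 (0.268), were several times farther away.

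Markers of some other cells differed between the groups, and their part in the members' differences was not tested. Summed normalized counts of 9 mesothelial markers were 40331 to 51979 in apCAFs and 5277 to 6001 in nonapCAFs (7 of 9 rose), and of 11 pericyte and smooth muscle markers 59172 to 74013 and 19935 to 26477 (4 of 11 rose), with Rgs5 at 13 to 53 and 31 to 227 and Higd1b at 0 to 2 and 3 to 5. The 9 alveolar type II markers summed to 9018 to 10234 in nonapCAFs, but to 97847 and 81007 in apCAFs 1 and 2 and 8969 in apCAFs 3 (0 of 9 passed limma, and the authors' deposited table called 7 higher). Abca3, Lamp3 and Etv5 made up most of the sums in nonapCAFs and apCAFs 3, with 3546, 1903 and 4287 in nonapCAFs 4. Sftpc had 48853 and 40491 in apCAFs 1 and 2, 226 in apCAFs 3 and 124 to 185 in nonapCAFs. The 10 leukocyte markers summed to 1411 to 2328 in nonapCAFs, 11564 and 11182 in apCAFs 1 and 2 and 3538 in apCAFs 3 (0 of 10 passed). Lyz2 made up most of the sums in apCAFs 1 and 2 (9898 and 9470), and the other 9 leukocyte markers summed to 1666 to 2898 in apCAFs and 1027 to 1300 in nonapCAFs, with Ptprc at 24, 22 and 65 against 2, 29 and 34. Of the 8 endothelial markers 1, Kdr, rose, and the other 7 summed to 929 to 1448 in apCAFs and 1219 to 1436 in nonapCAFs, which overlap. The 8 fibroblast markers summed to 2803387 to 4232696 and 1194730 to 1430171 (4 of 8 rose). Most of each sum was Col1a1, Col1a2 and Col3a1 (878211, 507923 and 1309341 in apCAFs 1). Of the others, Pdgfra had 40769 to 89023 in apCAFs and 17628 to 21525 in nonapCAFs, and Pdpn 8582 to 16492 and 1451 to 1848. Transcripts of the labelled cell type were thus present in both groups. With apCAFs 3 as the only apCAFs library, which is the highest library for all 5 members, the log2 differences were 2.10 for Timp1, 2.97 for Timp3, 1.65 for Reck and 0.67 for Timp2. In bulk libraries, fewer cells of a type and less RNA per cell cannot be told apart.

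Each member was also set against the 8 fibroblast markers within a library, as log2 ratios with no test. Timp3 was higher relative to 7 of the 8 in every apCAFs library and overlapped for Pdpn (difference -0.11), the podoplanin gene. To Col1a1, for example, its log2 ratio was -3.80, -3.75 and -3.90 in apCAFs and -4.65, -4.86 and -4.94 in nonapCAFs, a difference of 0.999. Timp2 was lower relative to 7 of the 8 in every apCAFs library, such as by a difference of -1.23 to Col1a1, and higher relative to Lum. Timp1 was higher relative to 3 (Col3a1, Lum and Thy1), lower relative to 1 (Pdpn) and overlapped for 4, with a difference of 0.15 to Col1a1. Reck was higher relative to 2 (Col3a1 and Lum), lower relative to 4 and overlapped for 2, with a difference of -0.31 to Col1a1. The markers themselves were not uniform, since Lum was lower in every apCAFs library (log2 difference -0.89, limma adjusted p = 0.0952) and Pdpn rose by 2.73. Their median log2 difference was 1.54, beside -0.04 for all genes tested, and 7 of the 8 were higher in every apCAFs library. A gene that did not differ would therefore also tend to be lower relative to most of them. The share of all genes with such ratios was not taken.

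The calls for Timp1 and Reck rested on all libraries but apCAFs 3. Leaving out apCAFs 1, apCAFs 2, nonapCAFs 4, nonapCAFs 5 or nonapCAFs 6 gave limma adjusted p of 0.053 to 0.0679 for Timp1 and 0.0734 to 0.108 for Reck. Timp3 passed in all 6 fits that left out 1 library, at limma adjusted p of 0.00855 to 0.0454, when genes without signal in the remaining libraries were dropped; with those genes kept it missed without apCAFs 2 (limma adjusted p = 0.0506). With an experiment term under any of the 6 possible pairings of libraries, or with the close pairs apCAFs 1 and 2 and nonapCAFs 4 and 5 each averaged, 0 of 36443 genes passed limma, members included, with 4700 to 6680 genes at an unadjusted p under 0.05, among them Timp1, Timp3 and Reck. The close pairs show in Mmp9, for example, with 5828, 5782 and 1072 in apCAFs and 7663, 7725 and 1395 in nonapCAFs. Not every gene has them, since Mmp24 had 806, 665 and 812 in nonapCAFs 4, 5 and 6. Whether apCAFs 3 and nonapCAFs 6 share an experiment was not tested. Whether the libraries are independent sorts is not stated beyond the labels, so p-values measure the spread between these libraries.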

How the data were processed

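RNA-seq was deposited for 3 apCAFs and 3 nonapCAFs libraries, and all 6 were used. In their processing notes the submitters name Trim Galore, Bowtie2, DESeq2 and mm10. The counter, the annotation and the strand handling are not stated. Per the file headers, the authors deposited gene counts that they had normalized between libraries and rounded, a score rather than raw counts. In apCAFs 3, 8 of the integers between 1 and 30 are absent, and in apCAFs 2, 3 are, so reads were not recovered, depth is unknown and no counting interval is given. A further table from the authors has, per the file headers, log2 values, a fold change (a ratio of means) with its log2, and DESeq2 p-values with their adjusted values. Its GC percent, deposited by the authors, was not used.

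For the main test, limma 3.58.1 (R 4.3.3) took log2(value + 1) of the 36443 genes with any signal and a single group term, with two-sided p-values adjusted by Benjamini-Hochberg over all of them and called at 0.05; the pseudocount of 1 understates changes of low genes. The fit was tested on simulated data. Levels per kilobase use GENCODE M21 exon lengths (GRCm38), where all 5 members have the files' coordinates; promoters are from RefSeq (GRCm38.p6), where all 5 matched by symbol. Ratios were tested by exact permutation. The members and gene lists were chosen with earlier results of these data known. Named genes are the members, each pathway list's called genes and its 3 highest, and the 3 genes most like each member; cell markers and Syn1 are named outside that rule. Alternatives were other pseudocounts, filters and scalings, a variance trend, an experiment term, averaged pairs and left-out libraries.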

Additional observations from a re-analysis of the deposited data

How the results depend on the processing

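The direction of all 5 members held under every alternative tried. Timp1, Timp3 and Reck passed limma under both other pseudocounts, both filters on low values (Timp4 is dropped at a mean of at least 100), the 3 other scalings and the variance trend. Mmp2, which missed in the main fit, passed with a pseudocount of 10, both filters on low values and the variance trend. Mmp19 passed with the filter at a mean of at least 100 and with the variance trend. The other scalings moved the median log2 difference of 17829 genes by -0.152 (library totals), -0.118 (quantiles) and -0.0952 (median), and with quantiles 1049 genes rose and 281 fell, 78.9% higher against 89% in the main fit. The count over all genes, 1602, and over the pathway lists, 15, became 2527 and 24 with a pseudocount of 10, 2465 and 23 at a mean of at least 10, 2748 and 29 at a mean of at least 100, and 3453 and 31 with a variance trend. Leaving out 1 library gave 310 to 1791 genes, 1 to 3 members and 3 to 18 pathway genes, with log2 differences of 1.61 to 1.87 for Timp1, 2.45 to 2.72 for Timp3, 1.15 to 1.41 for Reck, 0.27 to 0.48 for Timp2 and 0.68 to 1.51 for Timp4. In these fits genes at 0 in all remaining libraries were dropped; that choice was made after a first version, which kept them, had been seen. The version that kept them gave 193 to 1936 genes, 0 to 3 members and 1 to 19 pathway genes, and Timp3 missed the threshold in it without apCAFs 2 (adjusted p 0.0506 against 0.0454). An experiment term called 0 genes, 0 members and 0 pathway genes under each of the 6 pairings (adjusted p 0.0804 to 0.136 for Timp1 at 1.77, 0.0618 to 0.136 for Timp3 at 2.62 and 0.11 to 0.148 for Reck at 1.31), with 3 or 4 members at an unadjusted p under 0.05. Averaging the close pairs also called 0 of each, with 1.89, 2.76 and 1.42 for Timp1, Timp3 and Reck (adjusted p 0.211, 0.194 and 0.246); fewer residual degrees of freedom are part of both settings. Leaving out apCAFs 1 and 2, an alternative chosen after seeing the data in which the lone apCAFs 3 is assumed to vary like the nonapCAFs, called 4575 genes, 4 members and 25 pathway genes, with Timp2 at 0.667 (adjusted p 0.0487), or 5339 and 26 with Timp2 at an adjusted p of 0.0286 where genes at 0 were kept. Directions turned for Adam10 with library totals (-0.045), for Itgb1 with library totals (-0.073), quantiles (-0.12), the median (-0.016) and without apCAFs 1 and 2 (-0.062), for Mmp3 without apCAFs 3 (0.024, against -0.453 without apCAFs 1), and for the ratio of Timp1 to Mmp2, at -0.021 without apCAFs 2 and -0.265 without nonapCAFs 6 (up to 0.227 without nonapCAFs 4); none of these had passed, and the cause was not tested. The groups share no replicate numbers and the true pairing of libraries is unknown, so the paired fits are the experiment-term fits over the 6 possible pairings. Depth is unknown, so how far it limits Timp4 cannot be stated.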
